A study of Mus musculus with 29 samples.

Results

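MdC1 is a subtype of the monocyte-derived cells (MdC) that the authors' deposited annotation distinguishes in mouse brain after experimental stroke. Its members were all brain cells whose annotation gave MdC as parent type and MdC1 as subtype. They numbered 2947 of 12553 MdC cells and of 55268 brain cells, in a series of 106977 brain and blood cells from 29 Drop-seq libraries. The other subtypes held 2805 (MdC2), 2078 (MdC3), 2039 (MdC4), 1467 (MdC5) and 1217 (MdC6) cells.

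Stroke was produced by transient occlusion of the middle cerebral artery in C57BL/6J mice, and controls had a sham operation. Young mice were males of 8 to 10 weeks and gave 4 brain libraries each for sham at day 2, stroke at day 2 and stroke at day 14. The aged animals were 17 to 20 months old: 2 libraries were sham at day 2 (1 male, 1 female), 3 were stroke at day 2 (1 male, 2 female) and 1, female, was stroke at day 14. Each library pooled 4 to 5 hemispheres, and brain cells were sorted as CD45high cells, microglia and endothelial cells. All groups were dissociated with actinomycin D, Brilliant Blue G and AP-5, which block transcription, the P2X7 receptor and the NMDA receptor. Because a library is a pool, its spread is that between pools. All young mice were male and most aged libraries female, so that age and sex cannot be told apart in full. The count tables listed 27514 genes for aged and 19704 for young brain libraries. Age therefore cannot be told apart from how the tables were made. Levels in blood monocytes are from blood libraries of young male mice, 8 to 10 weeks old, at stroke day 2.

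Classical monocytes carry Ccr2, the receptor through which they leave the bone marrow and enter injured tissue, together with Ly6c2 and Plac8. After entry they can differentiate into macrophages that take up dead cells, myelin and haemoglobin. Such cells induce lysosomal proteases (cathepsins), lipid carriers (Apoe, the Fabp proteins), haem oxygenase (Hmox1) and matrix and repair proteins such as Spp1 (osteopontin) and Arg1 (arginase 1, which competes with nitric oxide synthase for arginine). Interferon-response genes such as Rsad2 and the Ifit family, and the MHC class II genes that present antigen, mark other monocyte-derived states.

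The 18 brain libraries held 1143 to 5121 cells with totals of 819438 to 5855050 estimated counts, and their median count per cell lay between 321 and 1363.2. MdC1 cells of different libraries shared 1 barcode over 153 pairs of libraries. The median mitochondrial share per library ranged from 0.235 to 3.68%, and the young libraries fell on both sides of 1%. Of the young stroke libraries at day 2, replicates 1 and 2 lay under 1% and replicates 3 and 4 over it. The median counts per MdC1 cell were 451, 895, 1237 and 1201 in these 4 libraries, against 1405, 594, 1324 and 1134 in the other MdC cells. Levels below are in CPM, the counts of a gene scaled to the summed counts of its cell class in a library, and log2 ratios were taken after adding 5 CPM.

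MdC1 cells were almost absent after sham operation, were among the most frequent MdC cells 2 days after stroke in young and in aged mice, and were rare again at day 14. In the 4 young sham libraries they were 4 of 99, 0 of 94, 0 of 82 and 0 of 43 MdC cells. A count of 0 allowed a share of up to 3.19, 3.66 and 6.98% in the latter libraries, taking 3 cells of the total as the limit. The exact Clopper-Pearson interval of the first was 1.11 to 10.0%. At stroke day 2 the young libraries held 571 of 1939, 599 of 1638, 661 of 2180 and 436 of 1468, which are shares of 29.4, 36.6, 30.3 and 29.7%. At day 14 they held 27 of 803, 4 of 489, 19 of 749 and 8 of 857, or 3.36, 0.818, 2.54 and 0.933%. Every day 2 library was above every sham and every day 14 library, whereas the sham and day 14 libraries overlapped.

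The mean share was 31.5% ± 3.39 (SD, n = 4) at day 2, 1.01% ± 2.02 (n = 4) after sham and 1.91% ± 1.24 (n = 4) at day 14. Day 2 exceeded sham by 30.5 percentage points (two-sided exact permutation test, p = 0.0286, the smallest that 4 against 4 allows; adjusted p = 0.0429 over the 3 young comparisons). Day 14 lay 29.6 points under day 2, a difference of -29.6 (exact permutation p = 0.0286, adjusted p = 0.0429). Day 14 and sham differed by 0.903 points (exact permutation p = 0.40), which was not larger than the spread between libraries. As a share of all cells in the library, MdC1 was 15.7% ± 4.20 at day 2 and 0.481% ± 0.386 at day 14. After sham it was 0.0289% ± 0.0577. On that scale, which depends on how the sorted cells were mixed, day 14 exceeded sham by 0.452 points (exact permutation, adjusted p = 0.0286). Among leukocytes other than microglia and border-associated macrophages the difference was 0.712 points (exact permutation, adjusted p = 0.171).

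On the cell numbers of the subtypes, edgeR's quasi-likelihood test gave a log2 fold change of 4.67 ± 0.74 (SE) for day 2 against sham (adjusted p = 4.94e-04) and of -4.01 ± 0.43 for day 14 against day 2 (adjusted p = 3.76e-05). For day 14 against sham it gave 0.65 ± 0.92 (adjusted p = 0.483). Within the libraries of low mitochondrial share the mean was 33.0% at day 2 (2 libraries), 2.09% at day 14 (2) and 4.04% after sham (1). Within those of higher mitochondrial share it was 30.0% at day 2 (2), 1.74% at day 14 (2) and 0% after sham (3). Day 2 was thus over day 14 and over sham in both sets, of which the first holds a single sham library, while day 14 was under sham in the first and over it in the second. The labels name no batch, and the sets were formed from the values.

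In aged mice, MdC1 was 75 of 271 MdC cells in the male stroke library at day 2 and 216 of 813 and 327 of 856 in the female ones, or 27.7, 26.6 and 38.2%. The mean of 30.8% ± 6.42 (n = 3) differed from the young mean by -0.695 points (two-sided exact permutation p = 0.686; the smallest possible is 0.0571). With 1 library left out the difference ranged from -4.39 to 1.43, and it was positive without young replicate 2 (0.992), the aged male library (0.875) or the first aged female library (1.43). Both aged sham libraries held 0 MdC1 cells, of 33 and 52 MdC cells, which allows up to 9.09 and 5.77%. The aged day 14 library held 0 of 87, which allows up to 3.45%. Among the other subtypes in young mice, MdC3 was 75.7% ± 10.8 of MdC cells after sham, 14.7% ± 2.29 at stroke day 2 and 12.99% ± 5.22 at day 14. MdC6 made up 2.84% ± 3.37 at day 2 and 33.99% ± 1.26 at day 14. MdC2 was nearest to MdC1 in its course, with 9.21% ± 5.83, 28.8% ± 2.26 and 3.73% ± 1.21. Shares of MdC sum to 100%, so a larger share of one subtype lowers those of the others.

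**Figure D1:**
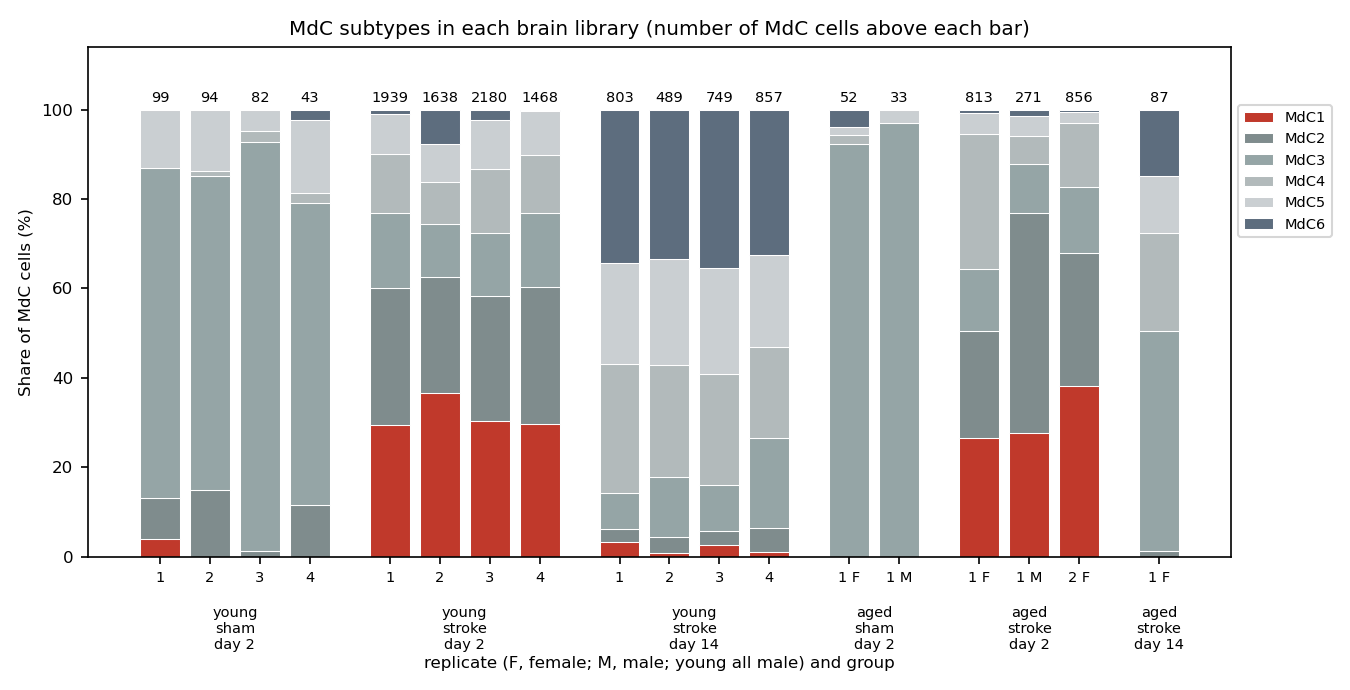
Share of each MdC subtype (y axis, percent of MdC cells) in each of the 18 brain libraries, by group and replicate, with the number of MdC cells above each bar. The MdC1 segment is 26.6 to 38.2% in all 7 stroke day 2 libraries and at most 4.04% in all others.

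The comparison of MdC1 with the other MdC cells is given without a test, since the authors defined the subtypes on the expression of these cells. Of 5394 genes with at least 20 CPM as the mean of MdC1 and the other MdC cells in young stroke day 2 libraries, 24.3% were higher and 26.6% lower in MdC1 than in the other MdC cells of the same library in 4 of 4 libraries. Of each gene list below, the members that reached this level are called measured. Of the pair of genes given as markers of MdC1, Lgals3 fitted and Vim did not. Lgals3 (galectin-3, a sugar-binding protein of activated phagocytes) stood at 5319, 4524, 6944 and 7108 CPM in MdC1, a mean of 5974 ± 1259 (SD, n = 4) against 4426 ± 876 in the other MdC cells. Its median log2 ratio was 0.44 and its level was higher in 4 of 4 libraries. Vim (vimentin, an intermediate filament protein) stood at 2641, 1191, 2613 and 2509 CPM, a mean of 2239 ± 701 against 3120 ± 793. Its median log2 ratio was -0.47, and it was lower in MdC1 in 4 of 4 libraries. Replicate 2 was the low Vim library. MdC2 had a mean Vim level of 3759 CPM. Both genes were abundant throughout MdC, and neither set MdC1 apart from all other subtypes.

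Markers of monocytes and macrophages were abundant in MdC1. Lyz2, Csf1r, Cd68, Ccr2 and the other genes of that list summed to 32263 CPM on average over the young day 2 libraries (26287 to 37109). Against the other MdC cells, 3 of the 10 genes were higher and 4, Ccr2 among them, lower in 4 of 4 libraries (median log2 ratio -0.18). The microglia list summed to 176 CPM (50.5 to 391), with Sall1 at 0.92, P2ry12 at 22.5 and Tmem119 at 66.05 CPM. Tmem119 and Olfml3, at 66.05 and 39.4 CPM, were higher in MdC1 than in the other MdC cells in 4 of 4 young and 3 of 3 aged libraries. P2ry12 was higher in 2 of 4 young and 3 of 3 aged libraries. The neutrophil list summed to 156 CPM (137 to 187), below the 272 CPM of the other MdC cells, and S100a9 was at 0. The list for border-associated macrophages summed to 1032 CPM (797 to 1542) against 326 in the other MdC cells. All 4 measured members (Mrc1, Pf4, Cbr2 and Stab1) were higher in MdC1 in 4 of 4 young and 3 of 3 aged libraries, with median log2 ratios of 1.38 and 1.48. Pf4 supplied most of the sum, at 702 CPM, and Cd163 and Lyve1 were at 1.66 and 1.39 CPM. The part of such cells in the MdC1 profile was not tested. T cell, NK cell, B cell, endothelial and mural lists summed to 1.65, 0.584, 11.5, 13.3 and 9.45 CPM.

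Arg1 and Spp1 had higher mean levels in MdC1 than in each of the other 5 subtypes. Arg1 was at 2336, 3502, 2404 and 3437 CPM, a mean of 2920 ± 636, and each library was above the same library's other MdC cells, whose mean was 759 ± 186 (median log2 ratio 2.03). Its mean was 1104 CPM in MdC2, 755 in MdC4, 496 in MdC6, 358 in MdC5 and 66.7 in MdC3, and 0 in blood monocytes of young mice at stroke day 2. Spp1 was at 13284, 21337, 13536 and 11282 CPM, a mean of 14860 ± 4434 against 3480 ± 1944 (median log2 ratio 2.07; 1.82 without replicate 1). MdC6, which held 20, 127, 49 and 5 cells in these libraries, had 9576 ± 8570 CPM of Spp1, a spread so wide that the libraries of both subtypes overlapped. Gpnmb, a lysosomal glycoprotein of lipid-laden macrophages, was at 953, 1039, 810 and 969 CPM in MdC1 (943 ± 96.0 against 313 ± 116, log2 ratio 1.67). MdC6 had 1577 ± 1203 CPM, with 1124, 1364, 520 and 3302 CPM in the 4 libraries, so that the libraries of both subtypes overlapped and the highest MdC6 value rested on 5 cells. Of 11 measured genes of alternative activation and repair, 7 were higher and 3 lower in 4 of 4 libraries, and the median log2 ratio was 0.76. The lower members were Thbs1, Il1rn and Mmp19, a matrix glycoprotein, the interleukin-1 receptor antagonist and a metalloproteinase.

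**Figure D2:**
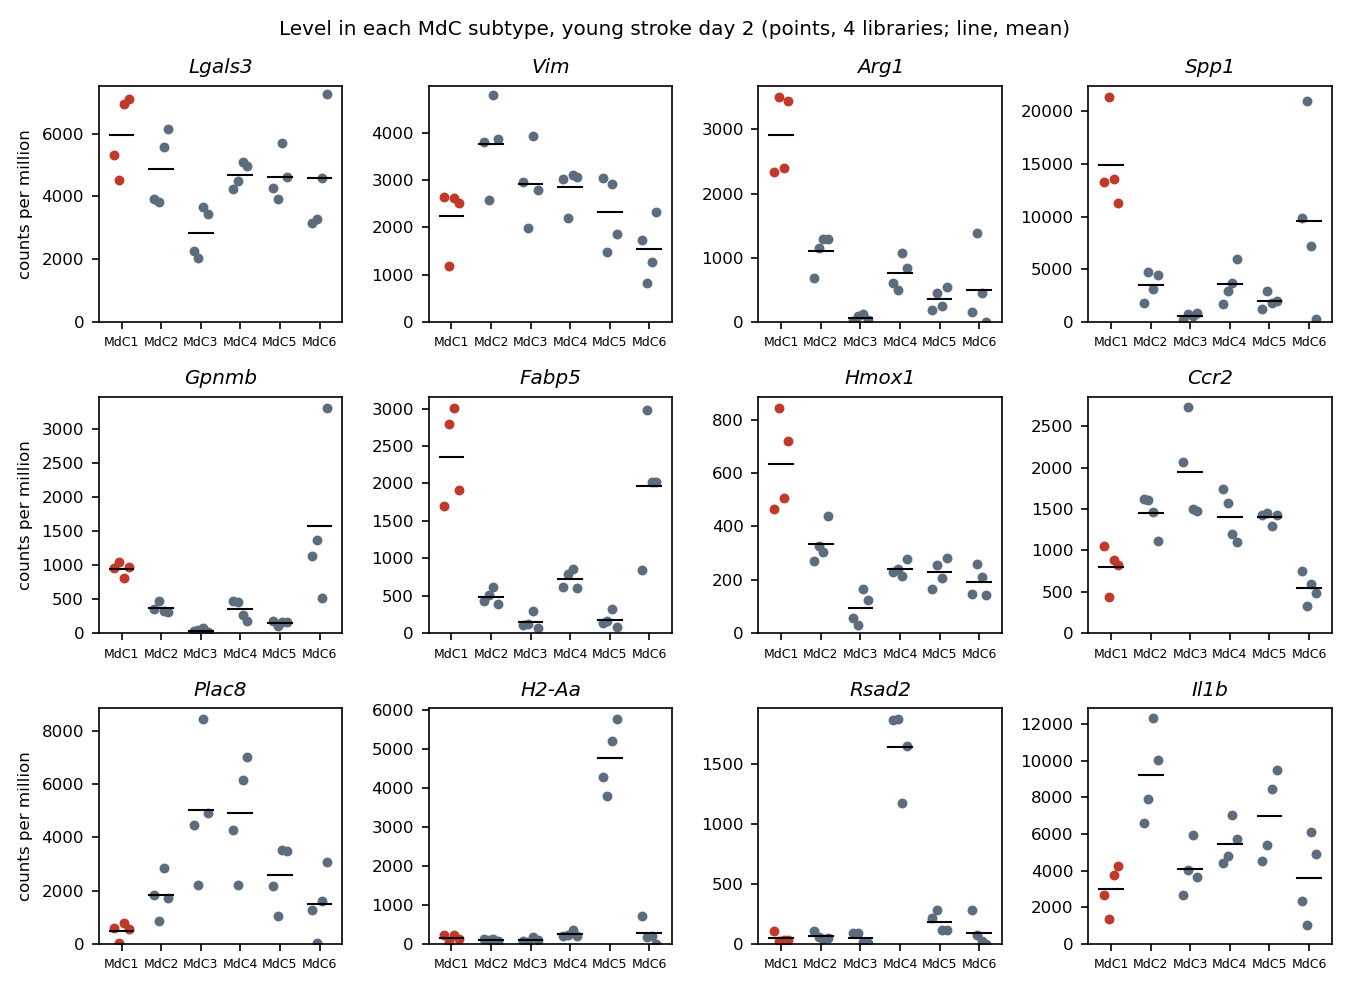
Level (y axis, CPM, linear from 0) of 12 genes in MdC1 to MdC6 (x axis) of the 4 young stroke day 2 libraries; points are libraries and lines are means. MdC1 has the highest mean Arg1 (2920 CPM) and Spp1 (14860 CPM), whereas MdC5 leads in H2-Aa (4759 CPM) and MdC4 in Rsad2 (1646 CPM).

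Lysosomal and lipid-handling genes were higher in MdC1 as groups. In the lysosome list 12 of 13 measured genes were higher in 4 of 4 libraries and 1, Lamp2, was lower, with a median log2 ratio of 0.61. Ctsd (cathepsin D) was at 4794, 5184, 5993 and 5082 CPM, a mean of 5263 ± 514 against 2134 ± 358 (log2 ratio 1.29). Ctsb (cathepsin B) averaged 10688 ± 878 against 4805 ± 573 (1.21). Cd63, a membrane protein of late endosomes, was at 1324, 2296, 1805 and 1658 CPM (log2 ratio 1.75). None of the Ctsd libraries overlapped with the other MdC cells.

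In the lipid-handling list 9 of 12 genes were higher in 4 of 4 libraries and 0 lower, with a median log2 ratio of 0.85. Fabp5, an intracellular fatty acid carrier, was at 1693, 2794, 3009 and 1915 CPM, a mean of 2353 ± 646 against 529 ± 217 (log2 ratio 2.24), and MdC6 averaged 1965 CPM. Cd36, a scavenger receptor for oxidised lipid, averaged 113 ± 24.5 against 22.3 CPM (2.21). Apoe averaged 19820 ± 3806 against 8546 CPM (1.21) and Trem2, a lipid-sensing receptor, 579 ± 80.7 against 270 (1.05).

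Genes of haem and iron handling formed a further set. Hmox1, which cleaves haem, was at 465, 845, 507 and 721 CPM, a mean of 635 ± 179 against 257 ± 49.4 (log2 ratio 1.14). Gclm, a subunit of the enzyme that starts glutathione synthesis, was at 190, 437, 171 and 151 CPM against a mean of 73.1 (1.43), and replicate 2 stood above the rest. Blvrb (biliverdin reductase B) had a log2 ratio of 1.09, Slc48a1 (a haem transporter) 1.52 and Ftl1 (ferritin light chain) 0.88. In the antioxidant, haem and iron list 7 of 10 measured genes were higher in 4 of 4 libraries and 1, the cystine transporter Slc7a11, was lower (median 0.39).

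Further genes among the 20 highest ratios by the naming rule were Pf4 (a platelet-factor chemokine, 383, 614, 481 and 1329 CPM, log2 ratio 2.31), Fabp4 (1.55), Rnase4 (1.35), F7 (coagulation factor VII, 1.32), Tbxas1 (thromboxane synthase, 1.19), Pdia4 (a chaperone, 1.09) and Lgals1 (galectin-1, 1.09). Nrp1 and Nrp2, semaphorin and VEGF co-receptors, had ratios of 1.66 and 1.15. Nrp1 was at 281 and 293 CPM in replicates 1 and 2 and at 152 and 95.7 in replicates 3 and 4. The 2 libraries of lower mitochondrial share thus had the higher Nrp1 levels, while the ratio was positive in 4 of 4 libraries. C1qa split in the same way, with 801 and 929 CPM in replicates 1 and 2 and 214 and 112 in replicates 3 and 4.

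Monocyte, interferon and antigen-presentation genes were lower in MdC1. Of 12 classical monocyte genes, 10 were lower in 4 of 4 libraries and 0 higher (median log2 ratio -1.35). Ccr2 was at 1050, 434, 882 and 823 CPM, a mean of 797 ± 261 against 1457 in the other MdC cells and 3048 in blood monocytes. Plac8 was at 610, 50.9, 770 and 544 CPM, a mean of 494 ± 310 against 3082 (-2.65). Hp (haptoglobin) averaged 109 against 554 CPM (-2.39) and Ly6c2 397 ± 219 against 1175 (-1.50). Chil3, another monocyte gene, was at 1469 against 2534 CPM (-0.62).

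Of 14 interferon-response genes, 13 were lower and 1, Bst2, was higher, with a median log2 ratio of -1.51. Rsad2 (viperin) was at 110.0, 24.9, 28.7 and 30.7 CPM against a mean of 394 (-3.33), Ifit2 averaged 22.9 against 211 (-2.82) and Cxcl10, an interferon-induced chemokine, 79.8 ± 50.05 against 495 (-2.71). The comparison level rested on MdC4, which held Rsad2 at 1646 CPM. All 7 measured MHC class II genes were lower (median -1.93). H2-Aa averaged 160 CPM in MdC1, 4759 in MdC5 and 102 to 276 in the other subtypes, so that contrast came from MdC5. Among 15 inflammatory cytokines and chemokines 9 were lower and 0 higher in 4 of 4 libraries (median -0.62). Il1b was at 2693, 1334, 3779 and 4278 CPM, a mean of 3021 ± 1305 against 6946 (-1.11), and was highest in MdC2 at 9212 CPM.

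The motility list of galectins, S100 proteins and annexins was also mostly lower, with 11 of 14 genes lower in 4 of 4 libraries and 3 (Lgals3, Lgals1 and Anxa5) higher, at a median of -0.32 that was nearer to 0. Glycolysis had 4 higher and 5 lower of 13 (0.06), the hypoxia response 2 and 5 of 8 (-0.38), complement and Fc receptors 4 and 1 of 10 (0.06), the early response 1 and 2 of 12 (-0.07) and nonclassical monocyte genes 1 and 3 of 5 (-0.39). Of 12 proliferation genes, 1 (Pcna) reached 20 CPM. In the 3 aged stroke libraries at day 2 the medians were 0.74 for lipid handling, 0.75 for the lysosome and 0.61 for antioxidant genes. They were -1.49 for classical monocyte genes, -1.45 for MHC class II and -0.99 for interferon. Repair (0.49), the inflammatory list (-0.15) and motility (-0.14) had medians smaller in size than in young mice. So did lipid handling, MHC class II and interferon, whereas the lysosome, antioxidant and classical monocyte medians were larger in size.

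**Figure D3:**
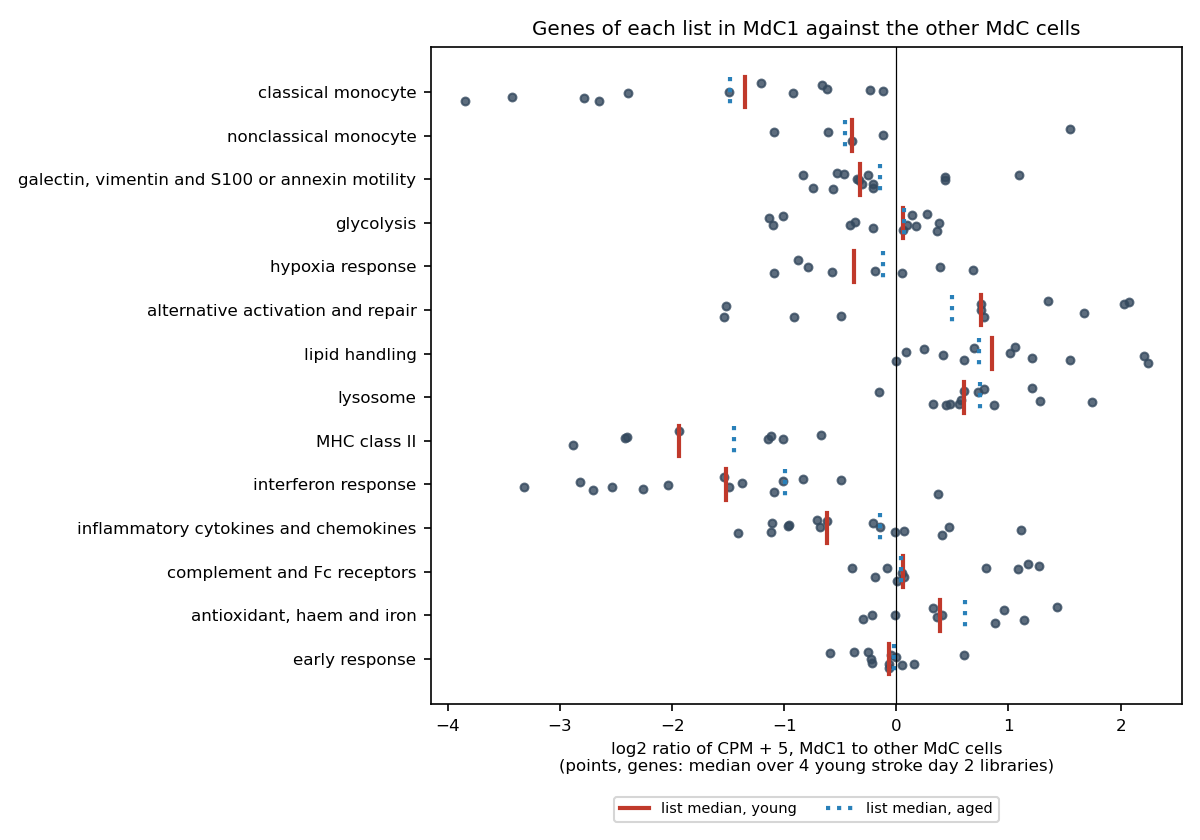
Log2 ratio of CPM + 5 in MdC1 to the other MdC cells (x axis) for the members of 14 gene lists (y axis); points are genes, as medians over 4 young stroke day 2 libraries, and bars are list medians in young (solid) and aged (dotted) mice. Lipid handling (0.85), repair (0.76) and lysosome (0.61) lie to the right of 0, and classical monocyte (-1.35), interferon (-1.51) and MHC class II (-1.93) to the left.

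Promoters of genes from both sides of this contrast are shown because the groups moved together. The 250 bases before the start of each gene come from RefSeq on GRCm38.p6, 5′ to 3′ on the gene's strand. Of the named genes, 13 of the 20 higher and 11 of the 12 lower had an entry. Capitals mark 3 motifs searched on both strands. They are TGACNNNGC (the core of the antioxidant response element), CACGTG (the E-box bound by MiT/TFE factors of lysosomal genes) and the core of the interferon-stimulated response element, which is GAAA, any 2 bases and GAAA again. Ctsd (chr7:142387828-142388077, minus strand), the cathepsin described above, held the first motif and the second. Gclm (chr3:122245307-122245556, plus strand) held the first. Ifit1 (chr19:34640639-34640888, plus strand), Ifit3 (chr19:34583279-34583528, plus strand) and Cxcl10 (chr5:92348890-92349139, minus strand), from the lower genes, held the third.
Ctsd: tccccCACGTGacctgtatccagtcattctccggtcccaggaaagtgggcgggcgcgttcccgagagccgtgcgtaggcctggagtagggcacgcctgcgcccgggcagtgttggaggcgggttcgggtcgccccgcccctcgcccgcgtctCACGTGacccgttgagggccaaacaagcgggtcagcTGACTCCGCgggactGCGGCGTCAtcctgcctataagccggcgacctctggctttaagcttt
Gclm: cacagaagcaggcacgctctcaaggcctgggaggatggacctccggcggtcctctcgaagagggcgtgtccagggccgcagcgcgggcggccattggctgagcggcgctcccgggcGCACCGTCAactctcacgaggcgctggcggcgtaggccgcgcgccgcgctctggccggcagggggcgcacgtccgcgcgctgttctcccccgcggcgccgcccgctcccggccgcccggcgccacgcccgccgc
Ifit1: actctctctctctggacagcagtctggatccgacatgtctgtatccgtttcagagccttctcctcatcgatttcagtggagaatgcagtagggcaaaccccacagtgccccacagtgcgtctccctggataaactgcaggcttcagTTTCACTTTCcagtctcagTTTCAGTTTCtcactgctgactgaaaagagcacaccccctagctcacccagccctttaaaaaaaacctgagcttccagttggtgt
Ifit3: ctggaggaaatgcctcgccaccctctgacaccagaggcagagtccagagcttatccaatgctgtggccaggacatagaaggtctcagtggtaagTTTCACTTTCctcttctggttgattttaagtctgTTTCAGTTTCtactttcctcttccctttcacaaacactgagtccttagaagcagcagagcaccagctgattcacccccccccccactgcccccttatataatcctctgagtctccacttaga
Cxcl10: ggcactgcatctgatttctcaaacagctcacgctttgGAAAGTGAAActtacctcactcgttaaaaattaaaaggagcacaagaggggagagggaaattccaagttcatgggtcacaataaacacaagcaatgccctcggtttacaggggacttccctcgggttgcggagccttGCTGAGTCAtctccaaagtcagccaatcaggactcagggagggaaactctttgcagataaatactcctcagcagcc
Among all 27025 promoters of this length, 10.1% held TGACNNNGC, 6.05% CACGTG and 3.04% the interferon element. TGACNNNGC was in 2 of the 13 higher genes (Ctsd and Gclm) and in 3 of the 11 lower ones (Cxcl10, Plac8 and Rsad2). CACGTG was in 1 of 13 and 0 of 11. The interferon element was in 1 of 13 (Spp1) and in 5 of 11 (Cxcl10, Cytip, Ifit1, Ifit3 and Rsad2). A match describes the letters of this window and does not show a bound site.

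The share of single cells with a count was compared after thinning each cell to 300 counts, which kept 1940 of the 2267 young day 2 MdC1 cells and left out 327. Arg1 was detected in 34.6% ± 7.90 (SD, n = 4) of MdC1 cells (49.8% before thinning), in 12.9% of MdC2, 11.8% of MdC4 and 1.05% of MdC3 cells, and in 3.97% of T cells, which should lack it. Spp1 was detected in 65.6% ± 10.8 of MdC1 cells (77.0% before thinning) against 3.38% of T cells, and Gpnmb in 17.4% ± 2.74 (38.3%) against 0%. In MdC6, with 153 cells kept, Spp1 was detected in 49.6% ± 34.1 and Gpnmb in 21.98% ± 10.2 of cells. The mean for Gpnmb was above MdC1 after thinning but below it before (29.3%). The libraries of both subtypes overlapped for Gpnmb, at 15.4 to 36.9% in MdC6 and 14.7 to 20.9% in MdC1 after thinning. Lgals3 was detected in 73.4% ± 7.01 of MdC1 cells (87.3%), against 65.5% in MdC2, 52.9% in MdC3 and 5.80% of T cells. Vim was detected in 44.9% ± 10.3 (75.3%), below the 60.1% of MdC2. Arg1 was thus found in a part of the MdC1 cells at this depth, and Lgals3 in most of them.

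By the correlation of log2 CPM over 5012 genes, MdC1 was closest to MdC2 (r = 0.949), followed by MdC5 (0.937), MdC6 (0.934) and MdC4 (0.907). MdC3 (0.868), border-associated macrophages (0.828), dendritic cells (0.770), blood monocytes (0.713) and microglia (0.700) came lower. These values describe profiles of the same libraries, blood apart, and are across genes, which are not independent.

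Whether the few MdC1 cells of day 14 differed from those of day 2 could be tested on thin data only: the 2 day 14 libraries with at least 10 MdC1 cells held 27 cells with 29016 counts (replicate 1) and 19 cells with 40948 counts (replicate 3). The replicate numbers were taken to pair the libraries of both days, as a hint from the data and not from the labels. For day 14 replicate 1 the hint was weak. In the other MdC cells its deviations correlated more with day 2 replicate 2 (0.552) than with day 2 replicate 1 (0.369). Without that pairing, edgeR called 0 of 6990 genes (0%; 609 at an unadjusted p under 0.05), and DESeq2 called 18. With the pairing as a block, edgeR called 41 genes (0.587%), 8 higher (0.114%) and 33 lower (0.472%) at day 14. The blocked calls rest on 2 pairs of libraries (replicates 1 and 3) with 1 residual degree of freedom, since day 2 replicates 2 and 4 have no partner, and their small adjusted p-values lean on the spread shared across genes. In the blocked fit the median log2 change of all genes was -0.27, and 6 of the 33 lower genes had under 10 counts at day 14.

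The 8 genes called higher in the blocked fit included 2 of the repair list, Gpnmb and Il1rn. Of the 12 tested genes of that list, 2 others (Saa3 and Ecm1) were called lower, and its median was -0.48. Clec7a (dectin-1, a pattern receptor) was at 474, 207, 445 and 406 CPM at day 2 and at 1828 and 1880 at day 14 (log2 change 1.71 ± 0.30, edgeR adjusted p = 1.93e-05). Cd9, a tetraspanin, was at 421, 745, 434 and 356 CPM and then at 1016 and 2458 (1.64 ± 0.31, adjusted p = 1.11e-04). Gpnmb reached 2478 and 2227 CPM (1.11 ± 0.30, adjusted p = 0.0359). For these 3 genes the libraries of both days did not overlap, which the naming rule required. Il1rn was at 120, 74.9, 86.6 and 74.0 CPM and then at 275 and 820 (2.16 ± 0.41, adjusted p = 8.96e-05), and Glipr1, Slamf7, Cybb and C1qa were the other genes called higher. In the fit without the block, leaving out day 14 replicate 3 moved the change of Cd9 from 1.52 to 0.39 and that of Il1rn from 2.36 to 0.98.

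Members of the motility, classical monocyte and inflammatory lists were called lower in the same fit. S100a4, a calcium-binding protein of motile cells, was at 1532, 996, 2421 and 1821 CPM and then at 445 and 325 (-2.68 ± 0.36, edgeR adjusted p = 1.57e-09). Chil3 was at 1268, 588, 1594 and 2424 CPM and then at 103 and 456 (-2.65 ± 0.38, adjusted p = 1.07e-08). Ccr2 reached 204 and 299 CPM (-2.21 ± 0.38, adjusted p = 1.5e-05). All 4 day 2 libraries of these genes were above both day 14 libraries, and the naming rule asked for such a gap. For Chil3, leaving out day 14 replicate 3 from the fit without the block moved the change from -2.67 to -4.54, and leaving out replicate 1 to -2.07.

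Pf4 reached 127 and 23.8 CPM (-2.88 ± 0.52, edgeR adjusted p = 4.89e-05). A floor of 3 counts is 103 CPM in day 14 replicate 1 and 73.3 CPM in replicate 3, so the second Pf4 level was not resolved. Tgfbi, a matrix adhesion protein, reached 679 and 1117 CPM (-1.75 ± 0.33, edgeR adjusted p = 8.63e-05) and Hmox1 205 and 165 (-1.69 ± 0.42, adjusted p = 0.0193). In the fit without the block, leaving out a library moved some of these changes. Pf4 went from -3.65 to -5.25 without day 14 replicate 1 and to -3.05 without day 2 replicate 4, and without day 14 replicate 3 Tgfbi went from -1.59 to -2.32 and Ccr2 reached -2.61. In the motility list 5 of 14 tested genes were called lower and 0 higher in the blocked fit, namely S100a4, S100a6 (-1.54), S100a10 (-1.47), S100a11 (-1.38) and Anxa2 (-1.25). In the inflammatory list 3 of 14 were called lower and 0 higher, namely Il1b (-1.27), Cxcl2 (-1.16) and Ccl4 (-1.52). In the classical monocyte list 2 of 12 were called lower and 0 higher, namely Ccr2 and Chil3. Of the lipid handling list, Plin2 (-1.28) was called lower and 0 genes higher, while 10 of 13 genes had positive changes (median 0.23). Of 8 hypoxia genes, Hilpda (-1.68) was called lower and 0 higher. Saa3, an acute-phase protein, had 357 ± 159 CPM at day 2 and 0 counts at day 14, at least 8.32-fold lower against a floor of 3 counts over both libraries.

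Lgals3, Vim, Arg1 and Spp1 were not called in the blocked fit. Lgals3 was at 6290 and 8421 CPM at day 14 (log2 change -0.04 ± 0.31, edgeR adjusted p = 1.00), and Vim at 1227 and 1926 (-1.05 ± 0.31, adjusted p = 0.107). Arg1 was at 68.5 CPM in replicate 1 and 5288 in replicate 3, on either side of every day 2 library. The former lay under the 103 CPM that 3 counts make in replicate 1, so its exact level was not resolved. Spp1 was at 19545 and 57996 CPM (1.03 ± 0.37, edgeR adjusted p = 0.291), with 1 library inside the range of day 2 and 1 above it.

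The change from day 2 to day 14 was also compared between MdC1 and the other MdC cells of the same libraries. This was done in 1 model with the library as a block, which does not use the pairing of replicates. The difference of the changes passed the edgeR threshold for 182 of 9111 genes (2%), with 16 more positive (0.176%) and 166 more negative (1.82%) in MdC1. The scaling moved this split: the median difference of all genes was -0.64 with TMM and -0.12 with library sizes alone, which called 69 genes, 39 more positive and 30 more negative. Of the 60 named genes, 15 were called in all 11 settings run, every one more negative in MdC1: Apoe, C1qa, C1qb, C1qc, Ccl4, Cd63, Ctsb, Ctsd, Fabp5, Gpnmb, Hebp1, Hexa, Ms4a7, Spp1 and Trem2.

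For each of these genes except Ccl4, both day 14 libraries of the other MdC cells lay above all 4 of their day 2 libraries. The genes were chosen as more negative in MdC1, and the share of all tested genes with such a rise was not counted. Ctsd in the other MdC cells averaged 2134 ± 358 CPM at day 2 and reached 4786 and 6793 CPM at day 14. In MdC1 it was at 4887 and 7162 CPM at day 14 (difference of changes -1.80 with TMM, -1.28 without). Gpnmb in the others was at 299, 481, 247 and 225 CPM at day 2 and at 2272 and 2344 at day 14 (-2.17 and -1.65). At day 14 the levels of both genes in MdC1 and in the others overlapped.

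Apoe in the others was at 6588, 12100, 8131 and 7366 CPM and then at 57454 and 50908, whereas MdC1 went from 18270, 25364, 16740 and 18907 CPM to 40740 and 27656 (-2.47 and -1.95). For C1qc, which opens the classical complement cascade with C1qa and C1qb, the difference was -2.56 with TMM and -2.04 without. In the lysosome list 11 of 14 genes were called more negative with TMM, and 4 of 14 without it. With neither scaling was a gene of that list called more positive, although 2 had a positive difference without TMM. The make-up of the other MdC cells changed between the days, with MdC6 at 2.84% of MdC cells at day 2 and 33.99% at day 14. Its part in these differences was not tested.

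The genes more positive in MdC1 included the chemokines Ccl2 and Ccl7, which recruit monocytes, and Il1rn. Ccl2 in MdC1 was at 1420, 758, 2256 and 3338 CPM at day 2 and at 984 and 2710 at day 14, while the others went from 1111, 1012, 1494 and 2003 CPM to 381 and 512 (1.15 with TMM, 1.68 without). For Ccl7 the difference was 1.25 and for Il1rn 2.67. None of the positive differences among the named genes was called in all settings. Without day 14 replicate 3, Ccl2 had a difference of 0.43 (edgeR adjusted p = 0.692), Ccl7 of 1.57 (adjusted p = 0.276) and Il1rn of 1.53 (adjusted p = 0.458), and the count of called genes was 52, with 2 more positive. Without day 14 replicate 1 it was 70.

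**Figure D4:**
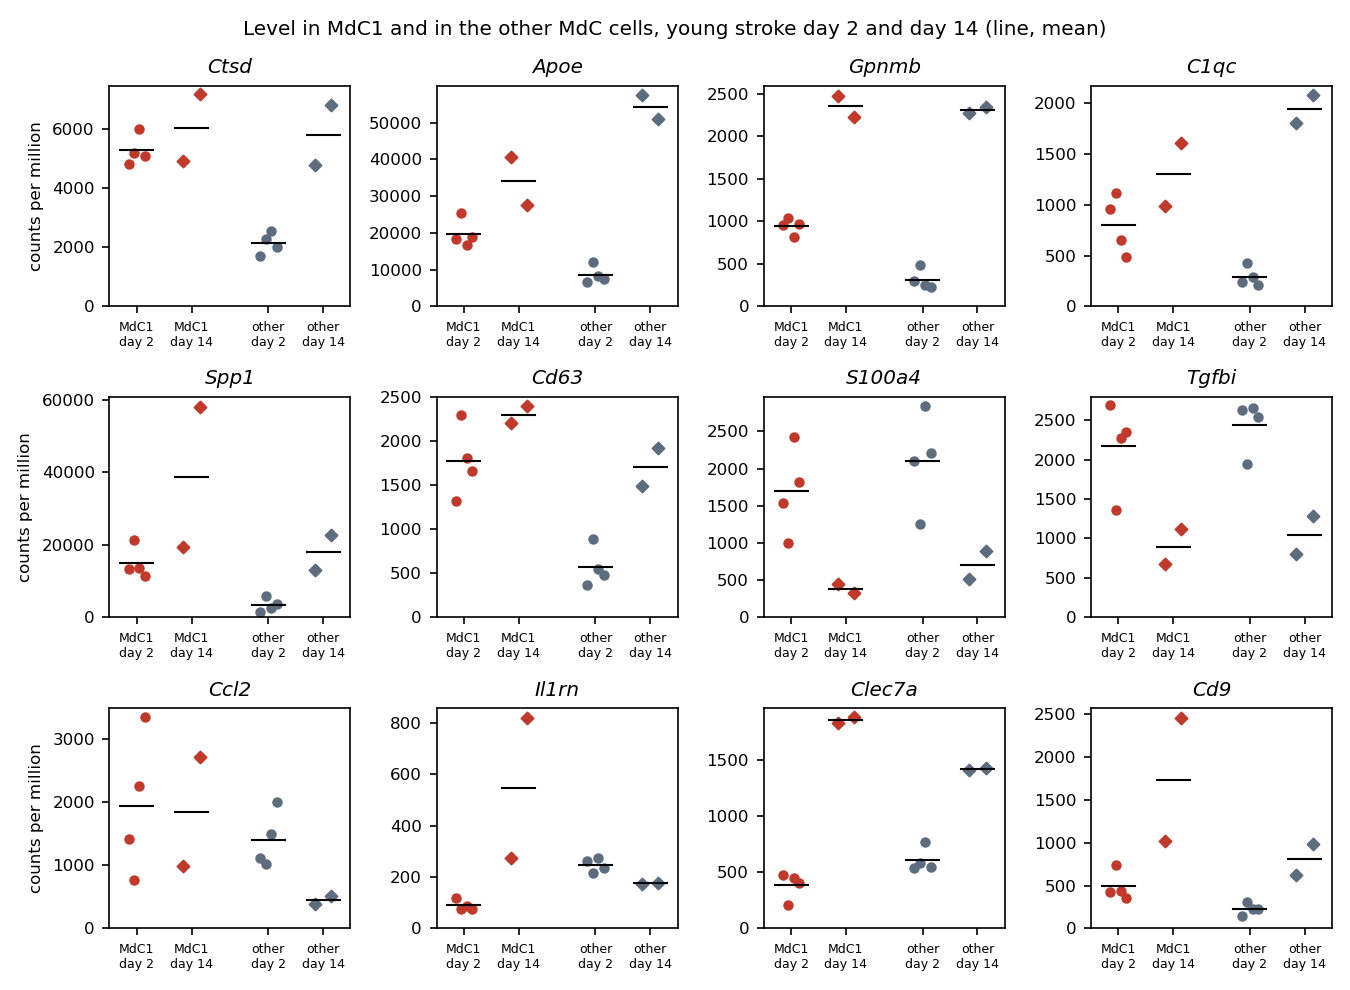
Level (y axis, CPM, linear from 0) of 12 genes in MdC1 (red) and in the other MdC cells (grey) at stroke day 2 (4 young libraries, circles) and day 14 (replicates 1 and 3, diamonds); lines are means. Ctsd and Gpnmb in the other MdC cells overlap at day 14 with MdC1 (4786 and 6793 against 4887 and 7162 CPM for Ctsd), while S100a4 is lower at day 14 in MdC1 (445 and 325 CPM).

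Aged and young MdC1 cells at stroke day 2 were compared over 3 against 4 libraries. edgeR called 0 of 5888 genes (0%; 212 at an unadjusted p under 0.05), and DESeq2 called 11, all higher in aged mice. Arg1 was at 11894 CPM in the aged male library and at 9913 and 8213 in the female ones, a mean of 10007 ± 1842 (SD, n = 3) against 2920 ± 636 in young mice. All 3 aged libraries were above all 4 young ones, yet the log2 difference of 1.79 ± 0.28 had an edgeR adjusted p of 0.252, and DESeq2 gave 5.14e-06. Arg1 was detected in 70.2% ± 10.1 of aged MdC1 cells after thinning (80.5% before; 552 cells kept, 66 left out), and in 3.398% of T cells. The other MdC cells showed the same pattern, at 481, 835, 861 and 861 CPM in young and 2997, 3090 and 1959 CPM in aged mice. The difference between MdC1 and the others in this respect was -0.11 ± 0.13 (edgeR adjusted p = 0.988).

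None of the next genes was called by edgeR either in the fit of all libraries with the low-count filter. Without that filter it called Areg, Ccl12 and Il1a. Areg (amphiregulin, a ligand of the EGF receptor) averaged 11.99 ± 2.18 CPM in young and 119 ± 57.8 in aged MdC1 (log2 difference 3.20 ± 0.40, edgeR adjusted p = 0.0660, DESeq2 4.57e-06). Ccl12, a monocyte chemokine, averaged 116 ± 33.3 and 530 ± 318 CPM (2.22 ± 0.38, edgeR adjusted p = 0.289, DESeq2 1.39e-04). Il1a averaged 40.7 ± 10.4 and 204 ± 176 CPM (2.27 ± 0.48, edgeR adjusted p = 0.419, DESeq2 0.00875), and the difference was 1.35 without the aged male library. Hilpda averaged 431 ± 104 and 1096 ± 368 CPM (1.34 ± 0.31, edgeR adjusted p = 0.634, DESeq2 0.0494). In each of these genes, as in Arg1, the aged and young libraries did not overlap. They were picked for large unadjusted differences or as list members. The share of all tested genes without overlap was not counted. Gpnmb was at 943 ± 96.0 CPM in young and 528 ± 129 in aged MdC1 (-0.80 ± 0.26), also without overlap and without passing the test.

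By list, all 14 measured interferon genes had positive differences and 0 were called, with a median of 0.76 beside -0.01 for all genes. The male aged library lay within or near the young range for these genes: Irf7 was at 108 CPM there, against a young mean of 121 and an aged mean of 338. Of 14 inflammatory genes 13 were positive and 0 called (median 0.68), and of 13 lysosomal genes 10 were negative and 0 called (median -0.21). The lists for border-associated macrophages and neutrophils summed to 2063 CPM (1167 to 3263) and 615 CPM (248 to 1327) in aged MdC1, higher than the 1032 and 156 CPM in young MdC1. Their part in the age differences was not tested.

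The difference between aged and young mice differed between MdC1 and the other MdC cells for 1 of 7136 genes (0.014%; 376 at an unadjusted p under 0.05). Serpinb6a, an intracellular protease inhibitor, was at 51.1, 46.0, 81.6 and 57.3 CPM in young MdC1 and at 225, 149 and 51.1 in aged MdC1. In the other MdC cells it was at 13.5, 33.6, 25.0 and 18.05 CPM in young and 6.7, 7.6 and 8.8 in aged mice (difference 2.48 ± 0.48, edgeR adjusted p = 0.0341; DESeq2 called 0 genes). One aged library was level with the young ones. Without the aged male library the difference was 1.96 (edgeR adjusted p = 0.321), and without the first aged female library 2.29 (adjusted p = 0.232). Without the second it was 3.17 (adjusted p = 0.00101).

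**Figure D5:**
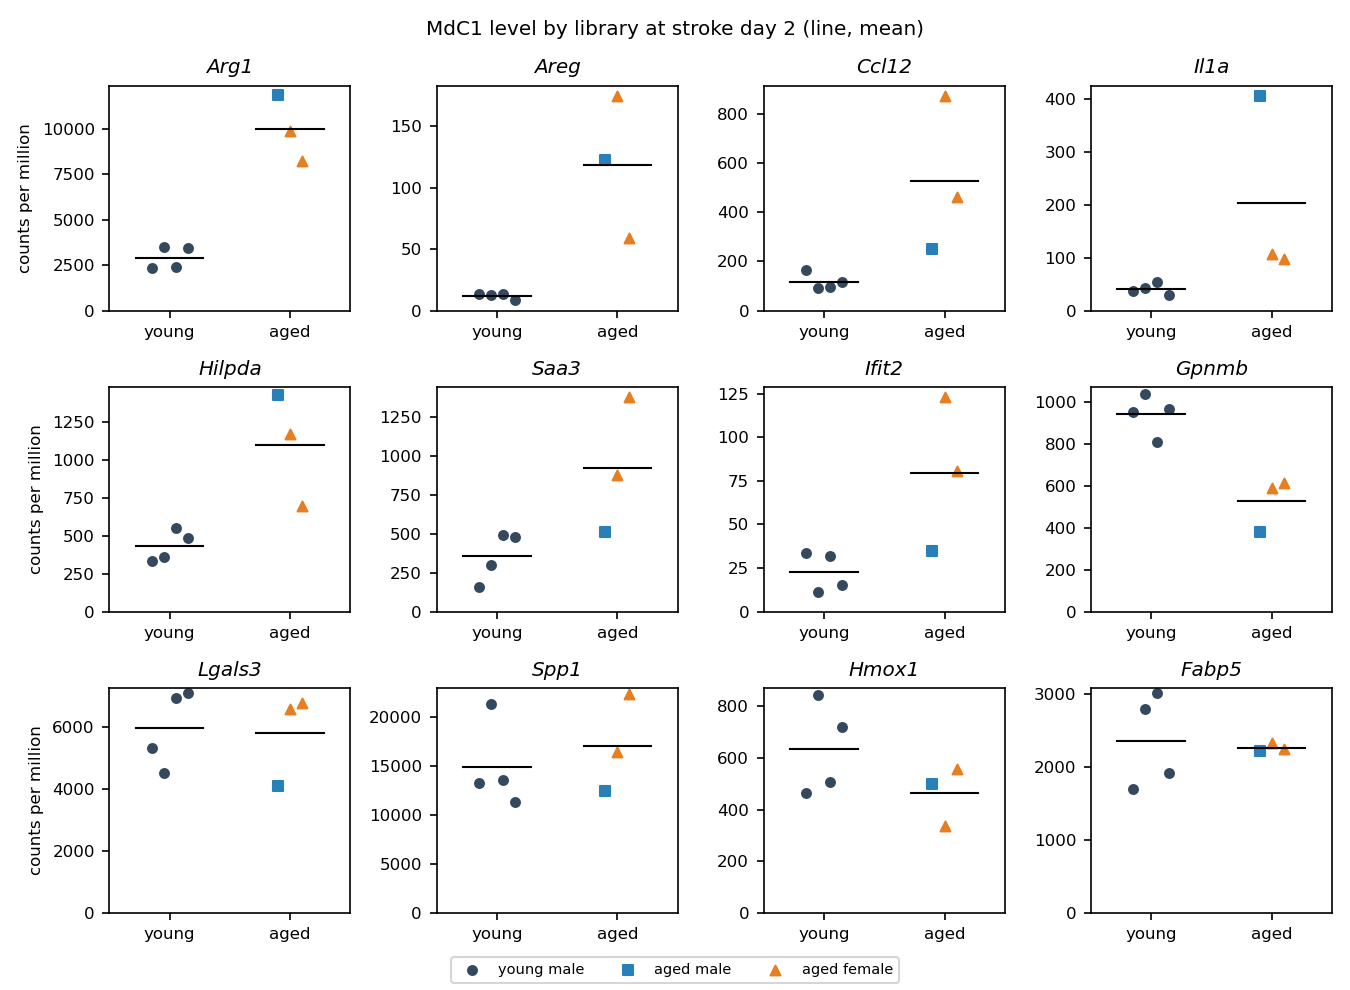
MdC1 level (y axis, CPM, linear from 0) of 12 genes at stroke day 2 in 4 young male, 1 aged male and 2 aged female libraries; lines are means. Arg1 lies at 8213 to 11894 CPM in aged and at 2336 to 3502 CPM in young libraries, while Lgals3, Spp1 and Fabp5 overlap.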

How the data were processed

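The brain and blood cells were profiled by Drop-seq. Per the submitters' processing notes the build was mm10 and Seurat was used; the aligner is not given in the sources used here. The authors deposited a table of estimated counts per gene and cell, in which 0.0388 to 4.47% of non-zero values per brain library (median 0.1%) were exactly whole, with metadata per cell: the number of genes (a count), the percent of mitochondrial counts and the cell type. The step that made the deposited counts fractional is not given in the sources used here. Members and gene lists were chosen with earlier results of these data known.

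Counts were summed per library over MdC1 and over the other MdC cells, rounded and tested with edgeR 4.0.16 (quasi-likelihood, TMM, low-count filter, Benjamini-Hochberg adjustment, calls at an adjusted p under 0.05; limma 3.58.1, R 4.3.3), with DESeq2 1.42.0 as an alternative. The SE given with an edgeR log2 change was not reported by edgeR. It was derived as the size of the change divided by the square root of the test's F statistic. Shares were tested by exact permutation (scipy 1.17.1, Python 3.11.15). The p-values measure only the spread between these pooled libraries. Intervals are exact Clopper-Pearson at 95%, floors are 3 counts, and both cover counting error only. The design asked for libraries of at least 20 MdC1 cells; 0 sham libraries and 1 day 14 library had them, so sham was not fitted and day 14 was tested at 10 cells, on 2 libraries. Same-numbered day 2 and day 14 libraries deviated together in the other MdC cells (correlations of 0.369, 0.853, 0.833 and 0.424 over 2973 genes), so the numbers were taken to pair them, as a hint from the data and not from the labels. Some differently numbered libraries correlated as much or more (0.552 for day 2 replicate 2 with day 14 replicate 1, 0.426 for 4 with 3).

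Named genes of the description were the 20 highest and 12 lowest median log2 ratios among genes of at least 100 CPM with the same direction in the 5 young stroke libraries that held at least 20 cells of both classes (4 at day 2, and day 14 replicate 1). Named genes of the fits were the 12 highest and 12 lowest called, of at least 20 CPM, without overlap of libraries. List members could be named whatever their values. Predicted, mitochondrial, ribosomal, haemoglobin and receptor genes, and genes more than 10 times as high in another brain type with 500 cells or more, were left out. No doublet removal is stated. Scrublet, in scanpy 1.11.5, marked at most 0.225% of cells per library, so it had not worked, and no fit without the marked cells was run. Simulated counts had 200 genes changed, the same fixed spread for every gene and no library differences beyond depth. The recovery values hold for that setting only. The age fit recovered 11.6% of changes of log2 1 and 65.7% of log2 2 over 5888 genes. The day 14 fit without the block recovered 0% and 7.69% over 6990, and the blocked fit was not simulated. The fits of the difference between MdC1 and the other MdC cells recovered 0% and 2.61% for day 14 (9110 genes) and 0% and 14.4% for age (7136). Promoter sequences are RefSeq's on GRCm38.p6.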

Additional observations from a re-analysis of the deposited data

Results flagged for a closer look

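The share of MdC1 among MdC cells was 4.04% in young sham replicate 1, apart from the other 3 sham libraries, which held 0 MdC1 cells. It was 36.6% in young stroke day 2 replicate 2, apart from the other 3. Among MdC1 levels at young stroke day 2, Gclm at 437 CPM and Vim at 1191 CPM in replicate 2 and Rsad2 at 110.0 CPM in replicate 1 stood apart from the other 3 libraries. These are 5 of 40 groups of 4 libraries examined, and chance gives about 1 in 20.

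For 182 genes the change from day 2 to day 14 differed between MdC1 and the other MdC cells by the test of the difference itself (edgeR). Of the 166 more negative in MdC1, 58 had under 10 MdC1 counts at day 14. For 1 gene, Serpinb6a, the aged to young difference differed between them.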

How the results depend on the processing

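Direction and call of MdC1 shares held with other denominators and with edgeR on cell numbers, apart from day 14 against sham among all cells. As a share of all cells, day 14 exceeded sham by 0.452 points (exact permutation, adjusted p = 0.0286). Among cells of at least 800 counts the young day 2 shares spread more widely, from 18.96 to 48.3% (mean 31.6% ± 12.2). With each library left out, 3 against 4 cannot pass after adjustment, and the difference was 28.8 to 31.5 points for day 2 against sham, 0.419 to 1.91 for day 14 against sham, -30.3 to -27.9 for day 14 against day 2 and -4.39 to 1.43 for aged against young. The last turned positive without young replicate 2 (0.992), the aged male (0.875) or the first aged female library (1.43). With the replicate block, edgeR gave log2 changes of 4.71, 0.87 and -4.15 for the first 3, with the same calls.

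Genes of day 14 against day 2 in MdC1, 0 in edgeR, numbered 41 with the replicate block, 18 in DESeq2, 1 without the filter on low counts and 0 with each library left out. Genes whose change differed from the other MdC cells, 182, numbered 52 in DESeq2, 81 without the filter, 69 without TMM, 119 with counts rounded up and 52 to 142 with a library left out: 105 and 112 without day 2 replicates 3 and 4, 70 and 52 without day 14 replicates 1 and 3. Ccl6, at 1.44, ranged from -0.19 (without day 14 replicate 3) to 2.01 (without day 14 replicate 1). Genes of aged against young, 0 in edgeR, numbered 11 in DESeq2, 12 without the filter and 0 to 2 with a library left out (2 without young replicate 2, 1 without the second aged female library). The 1 gene whose age difference differed became 0 in DESeq2 and in female libraries, 1 other gene, lower, with counts rounded up (Serpinb6a adjusted p = 0.0609), 11 without the filter and 0 to 15 with a library left out (5, 15 and 2 without young replicates 1, 2 and 4; 0, 0 and 4 without the aged male, first and second female library). The causes were not tested. All gene counts of the day 14 comparisons and of the age difference, and the splits by mitochondrial share, were chosen after seeing the data. The day 14 libraries' 29016 and 40948 counts put 3 counts at 103 and 73.3 CPM, so lower levels there were not resolved.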
